A study of Mus musculus with 4 samples.

Results

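The CXC chemokine ligands described here are 10 genes, Cxcl1, Cxcl2, Cxcl3, Cxcl5, Cxcl9, Cxcl10, Cxcl14, Cxcl15, Cxcl16 and Cxcl17, taken by gene name from a count table of 54532 genes. They were measured by poly(A) RNA sequencing in sorted mouse mammary tumor cells. All 4 libraries came from C57BL/6 tumors started by MFP injection of MMTV-PyMT tumor cells positive for an mCherry readout of the Notch ligand Dll1. PyMT is a viral oncogene, here driven by MMTV, a promoter active in mammary epithelium. After collagenase and hyaluronidase digestion, tumor cells were enriched by sorting on CD45, CD31 and TER119, markers of leukocytes, endothelium and red cells, and mCherry+ cells were then collected. The groups were 2 unirradiated libraries, titled control tumor, and 2 irradiated libraries, which had targeted radiation at day 30. Dose, animal age and whether the libraries of a group came from different animals are not given in the labels, so the p-values below describe the spread between libraries, which could be technical.

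Chemokines are small secreted proteins that guide white blood cells through G protein-coupled receptors. In the CXC family 1 residue separates the first pair of cysteines. Members with a glutamate-leucine-arginine (ELR) motif just before those cysteines act on Cxcr2 and draw neutrophils. Cxcl9 and Cxcl10 lack the motif, are induced by interferons and draw activated T and NK cells through Cxcr3. Cxcl14 is made by many epithelia, Cxcl16 is held at the cell surface and binds Cxcr6, and Cxcl17 is a mucosal chemokine. In breast tumors ELR ligands are known for recruiting myeloid cells, and Cxcl9 and Cxcl10 for recruiting lymphocytes.

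The coding sequences show the motif that divides the family. Each line below gives 30 coding bases of the GENCODE M21 transcript, 5′ to 3′, with the 3 codons before the first cysteine codon of the C-x-C pair in capitals. In the first 5 genes those codons spell the ELR motif with differing codons, and in Cxcl9 and Cxcl10, shown for contrast, they do not.
Cxcl1: gccaatGAGCTGCGCtgtcagtgcctgcag
Cxcl2: gccagtGAACTGCGCtgtcaatgcctgaag
Cxcl3: gccagtGAGCTGCGCtgtcagtgcctgaac
Cxcl5: gcaacgGAGCTGCGTtgtgtttgcttaacc
Cxcl15: actcaaGAGCTACGAtgtctgtgtattcag
Cxcl9: ataaggAATGCACGAtgctcctgcatcagc
Cxcl10: gcaaggACGGTCCGCtgcaactgcatccat
Cxcl2 and Cxcl3 are the closest pair by count assignment: 126 of the 2159 distinct stretches of 50 bases in Cxcl2 transcripts also occur in Cxcl3. Reads that lie wholly in shared sequence cannot be placed in 1 gene by their bases alone. How many reads this affects was not measured, so the low Cxcl3 values are uncertain beside the abundant Cxcl2. Cxcl1 shares none of its 1970 stretches with another gene.

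The ELR genes sit together in mm10 on the plus strand of chromosome 5, with Cxcl5 from 90759360 to 90761624, Cxcl3 from 90786103 to 90789600, Cxcl15 from 90794534 to 90803067, Cxcl1 from 90891241 to 90893115 and Cxcl2 from 90903871 to 90905938. Cxcl9 (92321347 to 92328079) and Cxcl10 (92346638 to 92348889) lie further along the same chromosome on the minus strand. Cxcl14 is on chromosome 13 from 56288643 to 56296551, Cxcl16 on chromosome 11 from 70453983 to 70459984 and Cxcl17 on chromosome 7 from 25400053 to 25412886, all on the minus strand. The exons of Cxcl16 share 18.3% of their bases with Zmynd15 and those of Cxcl10 share 5.91% with Art3, both on the opposite strand. The libraries do not keep strand, so reads in these shared exons belong to no certain gene. Art3 had 16, 21, 31 and 96 counts and Zmynd15 114, 114, 156 and 284 counts in unirradiated 1, unirradiated 2, irradiated 1 and irradiated 2, the order used for all runs of 4 values below.

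NF-kB and interferon-activated factors are the textbook regulators of these genes, and their motifs can be read in the promoters. RefSeq promoter windows (GRCm38.p6, 250 bases before to 50 after the start of transcription) were present for 7 of the 10 genes. Cxcl5, Cxcl16 and Cxcl17 had no entry. Both strands were searched for the kB motif (GGG, any 2 bases, TT, any base, CC), the interferon-stimulated response element or ISRE (GAAA, any 2 bases, GAAA) and the gamma-activated site or GAS (TTCNNNGAA), and the matches printed did not overlap each other. The kB letters were in 5 of the 7 windows, against 4.79% of all 32851 windows of that length. The stretches that hold matches are given below, 5′ to 3′ along the gene, with the matches in capitals.
Cxcl1, chr5:90891141-90891198, plus strand: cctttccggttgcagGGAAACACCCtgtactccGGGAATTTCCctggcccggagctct
Cxcl2, chr5:90903787-90903845, plus strand: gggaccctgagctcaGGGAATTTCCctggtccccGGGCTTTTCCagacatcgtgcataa
Cxcl3, chr5:90786013-90786052, plus strand: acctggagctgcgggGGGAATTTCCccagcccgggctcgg
Cxcl9, chr5:92328185-92328224, minus strand: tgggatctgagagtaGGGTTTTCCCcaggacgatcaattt
Cxcl10, chr5:92348968-92349117, minus strand: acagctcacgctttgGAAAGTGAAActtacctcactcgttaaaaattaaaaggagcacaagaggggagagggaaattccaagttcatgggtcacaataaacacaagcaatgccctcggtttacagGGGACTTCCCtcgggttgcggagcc
Cxcl14, chr13:56296699-56296757, minus strand: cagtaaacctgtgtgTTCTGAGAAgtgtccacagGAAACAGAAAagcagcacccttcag
Cxcl1, Cxcl2 and Cxcl3 hold the same 10 letters, GGGAATTTCC, at -71, -97 and -73, counted from the start to the first base of the match. Cxcl1 has a further kB match on the other strand, and Cxcl2 a second on the same strand. Cxcl10 has an ISRE match at -213 and a kB match at -103. Cxcl14 has a GAS and an ISRE match but no kB match, and the Cxcl15 window has none of the 3. ISRE letters were in 3.44% and GAS letters in 8.30% of all windows. A match is a description of the letters and not a measured binding site. Only the spellings given were searched, so kB sites spelled otherwise would not be marked. The Cxcl10 stretch also holds gggaaattcc, which differs from the kB spelling searched and is not in capitals.

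**Figure D1:**
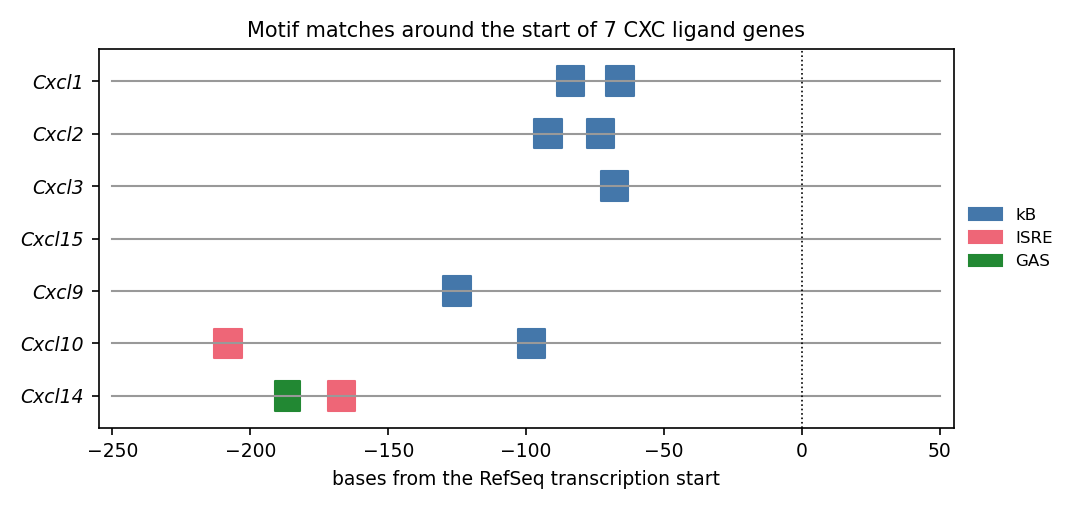
Positions of kB, ISRE and GAS matches (coloured blocks) in the promoter windows of 7 CXC ligand genes, in bases from the RefSeq start of transcription (dotted line). The ELR genes Cxcl1, Cxcl2 and Cxcl3 have kB matches within 100 bases before the start, Cxcl10 has an ISRE and a kB match, and Cxcl15 has none.

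Summed counts per library ran from 16811888 to 20817997. The unirradiated libraries were close to each other and the irradiated ones were not, with a biological coefficient of variation over genes of 5.93% and 39.4%. Irradiated 2 also held far more transcript of non-epithelial cells than the others, and beside the results that rest on it the values of irradiated 1, or a fit without irradiated 2, are given. The code at the start of each title (R11 or R14) splits as the treatment does, so a step tied to that code and radiation cannot be told apart. In bulk RNA, more cells of a type and more RNA per cell cannot be told apart either.

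Cxcl1 and Cxcl2 made up most of the summed transcript level of these 10 CXC ligands in every library. Levels of different genes are compared per length, as CPM (counts scaled to library size with TMM factors) per kilobase of the deposited gene length. Without radiation Cxcl1 was at 150 ± 11.3 and Cxcl2 at 140 ± 8.51 CPM per kilobase (SD, n = 2), and their values overlapped. Next came Cxcl16 at 19.4 ± 0.758, Cxcl14 at 12.2 ± 0.247, Cxcl10 at 10.7 ± 1.13 and Cxcl17 at 8.29 ± 0.979. Cxcl5 (0.829 ± 0.143), Cxcl15 (0.598 ± 0.179), Cxcl9 (0.187 ± 0.0393) and Cxcl3 (0.0681 ± 0.000948) were each below 1 CPM per kilobase. Parts of this order depend on the length used, because the deposited lengths count retained introns. With the longest coding transcript as length (953 bases for Cxcl1 against 1875 deposited), unirradiated Cxcl1 was at 310 and 279 and Cxcl2 at 163 and 149 CPM per kilobase, with no overlap. On that length Cxcl10 (19.1 and 16.5) lay above Cxcl14 (12.3 and 11.98), and Cxcl3 (0.237 and 0.232) above Cxcl9 (0.167 and 0.225). With radiation Cxcl1 was at 178 ± 32.9 and Cxcl2 at 105 ± 13.9 CPM per kilobase of deposited length, with no overlap. Cxcl10 (32.5 ± 22.8), Cxcl14 (25.2 ± 9.59) and Cxcl16 (21.5 ± 0.511) overlapped in the irradiated pair on the deposited length.

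The sum of the 10 levels came to 359, 326, 363 and 395 CPM per kilobase. The group means, 342 ± 23.2 without and 379 ± 21.99 with radiation (SD, n = 2), lay less than 2 SD apart. With coding length they were 512 ± 35.9 and 588 ± 7.495 and lay further apart than 2 of either SD, so the reading of the total depends on the length. The share of Cxcl1 and Cxcl2 together was 84.8%, 84.7%, 81.5% and 68.3%. The share of Cxcl10 alone was 3.21%, 3.04%, 4.50% and 12.3%, and that of Cxcl14 was 3.44%, 3.68%, 5.06% and 8.10%. Cxcl16 kept a nearly constant share of 5.55%, 5.78%, 5.81% and 5.54%. Cxcl1 by itself took 44.0%, 43.5%, 55.3% and 39.1% and Cxcl2 40.8%, 41.2%, 26.3% and 29.2%, so irradiated 1 was the extreme library for both. With coding length the combined share of Cxcl1 and Cxcl2 was 87.9%, 87.9%, 86.1% and 72.8%.

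**Figure D2:**
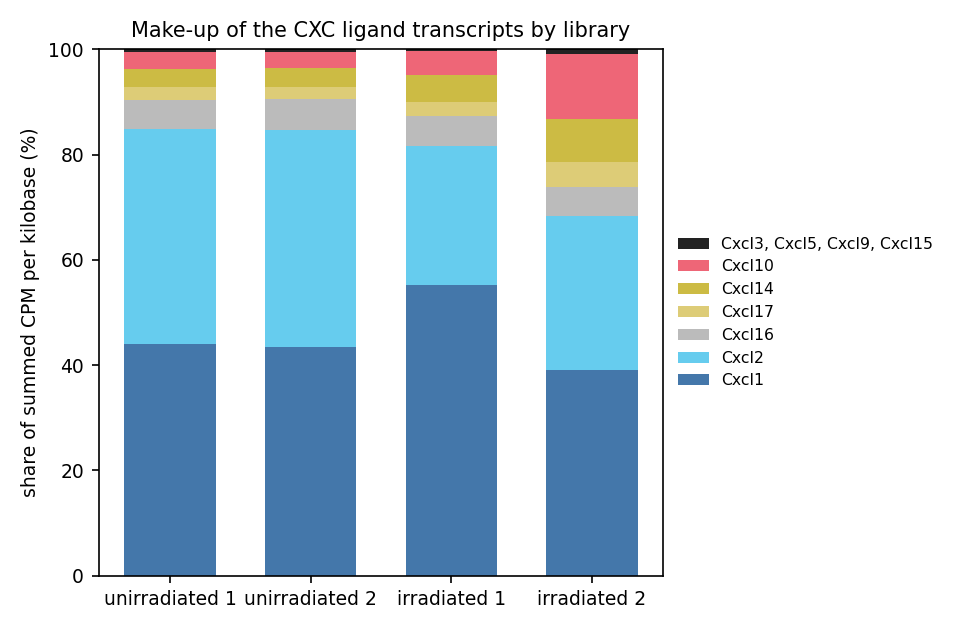
Share of each gene in the summed CPM per kilobase of the 10 CXC ligands, in percent, with 1 bar per library. Cxcl1 and Cxcl2 fill 84.8% and 84.7% of the unirradiated bars and 68.3% of the bar of irradiated 2, where Cxcl10 reaches 12.3%.

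Of the abundant neutrophil attractants, Cxcl2 lay lower in both irradiated libraries and Cxcl1 did not. Cxcl1 was at 296 and 266 CPM without radiation and at 377 and 289 CPM with it. Irradiated 1 was the highest library, and irradiated 2 lay between the unirradiated ones, so the groups overlapped. The log2 fold change was 0.25 (SE 0.17, edgeR adjusted p = 0.746). Cxcl2 was at 302 and 278 CPM against 197 and 238 CPM with radiation. Both irradiated libraries lay below both unirradiated ones, and the difference did not pass (log2 fold change -0.41, SE 0.14, edgeR adjusted p = 0.509).

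The ratio of Cxcl1 to Cxcl2 counts inside a library does not depend on scaling. It was looked at after the values had been seen. The ratio was 0.977 in unirradiated 1 (95% exact binomial interval 0.943 to 1.01) and 0.957 in unirradiated 2 (0.918 to 0.997). It was 1.91 in irradiated 1 (1.84 to 1.98) and 1.22 in irradiated 2 (1.17 to 1.26). Thus Cxcl2 counts slightly outnumbered Cxcl1 counts in the unirradiated libraries, and Cxcl1 counts outnumbered Cxcl2 counts in both irradiated ones. These intervals cover counting error only, and with 2 libraries a group the smallest p of an exact permutation test is 0.333.

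The other ELR genes were near the detection limit and varied in different ways. Cxcl5, an epithelial neutrophil attractant, was at 1.73 and 1.36 CPM (36 and 23 counts) without radiation and at 0.958 and 0.800 CPM (19 and 15 counts) with it. Both irradiated libraries lay lower (log2 fold change -0.81, SE 0.45, edgeR adjusted p = 0.659), and the Poisson intervals of unirradiated 2 (0.860 to 2.04 CPM) and irradiated 1 (0.577 to 1.50 CPM) overlapped. Cxcl15, known as lungkine for its expression in lung epithelium, was at 1.54 and 1.00 CPM against 0.353 and 1.55 CPM. Irradiated 1, with 7 counts, was the lowest and irradiated 2 the highest, so the irradiated pair spanned the unirradiated one (log2 fold change -0.43, SE 0.79, edgeR adjusted p = 0.916). Without irradiated 1 the log2 fold change of Cxcl15 was 0.25. Cxcl3 had 5, 4, 7 and 23 counts, or 0.241, 0.236, 0.353 and 1.23 CPM, and did not pass the filter on low counts. Its Poisson intervals overlapped in the first 3 libraries, and that of irradiated 2 (0.777 to 1.84 CPM) lay above them.

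Cxcl9 and Cxcl10, the interferon-inducible attractants of lymphocytes, lay higher in both irradiated libraries. Cxcl9 was at 0.481 and 0.649 CPM (10 and 11 counts) against 3.08 and 7.09 CPM (61 and 133 counts). The irradiated Poisson intervals, 2.35 to 3.95 and 5.94 to 8.40 CPM, were clear of the unirradiated ones, which reached 0.885 and 1.16 CPM. The log2 fold change was 3.16 (SE 0.58, edgeR adjusted p = 0.489). Cxcl10 was at 25.9 and 22.3 CPM against 36.9 and 110 CPM (log2 fold change 1.60, SE 0.52, edgeR adjusted p = 0.498). Irradiated 2 thus had 2.97 times the Cxcl10 of irradiated 1 and 2.30 times its Cxcl9. Without irradiated 2 the log2 fold change was 0.60 for Cxcl10 and 2.43 for Cxcl9.

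The 2 genes differed in proportion to each other as well. Of the Cxcl9 and Cxcl10 counts together, Cxcl9 took 1.82% (95% exact binomial interval 0.878 to 3.33) and 2.83% (1.42 to 5.00) without radiation. With radiation it took 7.70% (5.94 to 9.78) and 6.08% (5.11 to 7.16). The unirradiated libraries therefore held Cxcl10 transcript with little Cxcl9. The point estimates of the irradiated pair lay above those of the unirradiated pair, and the lower bound of irradiated 1 and of irradiated 2 lay above the upper bound of each unirradiated library. These intervals, too, cover counting error only and do not measure the spread between libraries.

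Cxcl14, Cxcl16 and Cxcl17 also lay higher in both irradiated libraries, by unequal amounts. Cxcl14, an epithelial chemokine, was at 22.5 and 21.9 CPM against 33.6 and 58.4 CPM (log2 fold change 1.05, SE 0.28, edgeR adjusted p = 0.489). Its unirradiated values were 1.03-fold apart, and irradiated 1 alone was 1.51-fold over their mean. Without irradiated 2 its log2 fold change was 0.58. Cxcl17, which acts at mucosal surfaces, was at 6.83 and 5.78 CPM against 7.21 and 14.3 CPM (log2 fold change 0.77, SE 0.39, edgeR adjusted p = 0.635). Irradiated 1 was only 1.14-fold over the unirradiated mean of Cxcl17, and without irradiated 2 its log2 fold change was 0.17. Cxcl16, the membrane-held ligand of Cxcr6, was the steadiest gene, at 60.2 and 56.9 CPM against 63.8 and 65.996 CPM (log2 fold change 0.15, SE 0.10, edgeR adjusted p = 0.738).

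**Figure D3:**
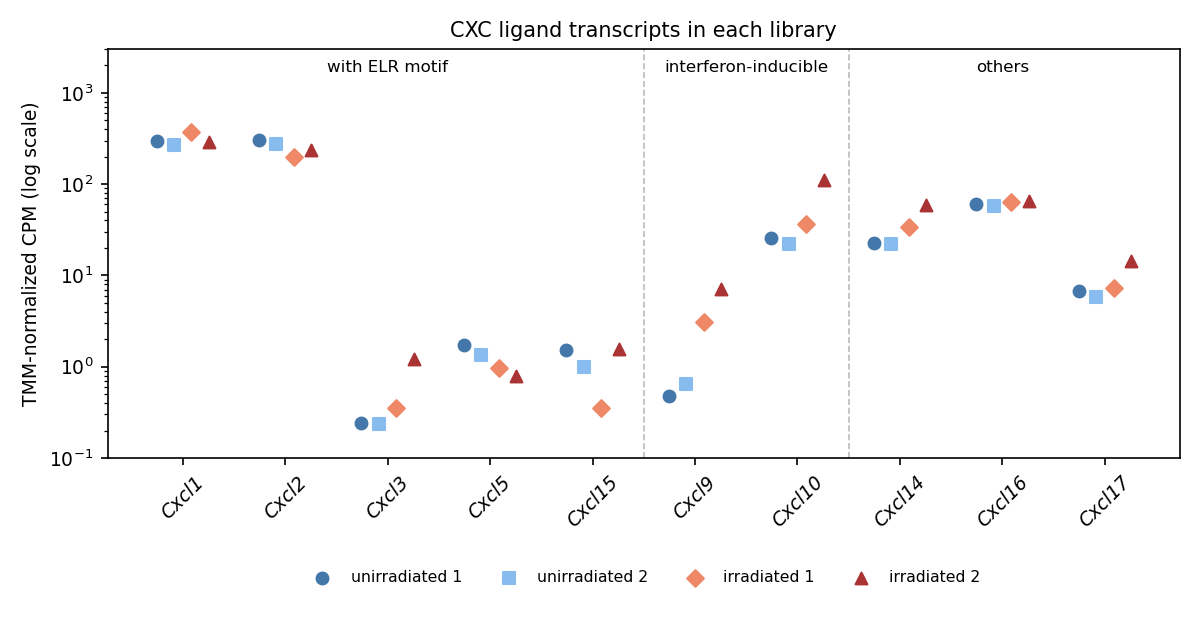
TMM-normalized CPM of the 10 CXC ligand genes on a log axis, with 1 point per library. Cxcl9 runs from 0.481 to 7.09 CPM and Cxcl10 from 22.3 to 110 CPM with both irradiated libraries on top, while the 4 points of Cxcl16 lie between 56.9 and 65.996 CPM.

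Across the family, 9 of the 10 genes passed the filter on low counts, and the comparison asked whether their expression differed with radiation. By the edgeR quasi-likelihood test over 15993 genes, 0 of the 9 passed an adjusted p of 0.05 in either direction. Over all genes 0 (0%) were called higher and 0 (0%) lower. At an unadjusted p under 0.05 the test held Cxcl9, Cxcl10 and Cxcl14 on the higher side (3 of 9, against 6.82% of all genes) and Cxcl2 on the lower side (1 of 9, against 2.44%). The irradiated pair lay wholly above the unirradiated pair in 5 of the 9 (20.3% of all genes) and below in 2 (20.0%). The median log2 fold change of the 9 was 0.25, beside 0.00396 over all genes tested, and for the 4 tested ELR genes it was -0.42.

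Single libraries gave different counts. In irradiated 1 Cxcl9 was the 1 gene over 2-fold higher than the unirradiated mean on the log2 CPM scale (5.88% of all genes), and Cxcl15 was the 1 gene over 2-fold lower (4.35%). In irradiated 2 Cxcl9, Cxcl10, Cxcl14 and Cxcl17 were over 2-fold higher (4 of 9, against 9.75%) and 0 were over 2-fold lower (1.66%). Between the irradiated libraries 3 of the 9 differed over 2-fold, beside 15.4% of all genes. The same share of all genes between the unirradiated libraries was 3.26%, and no tested ligand was among them.

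**Figure D4:**
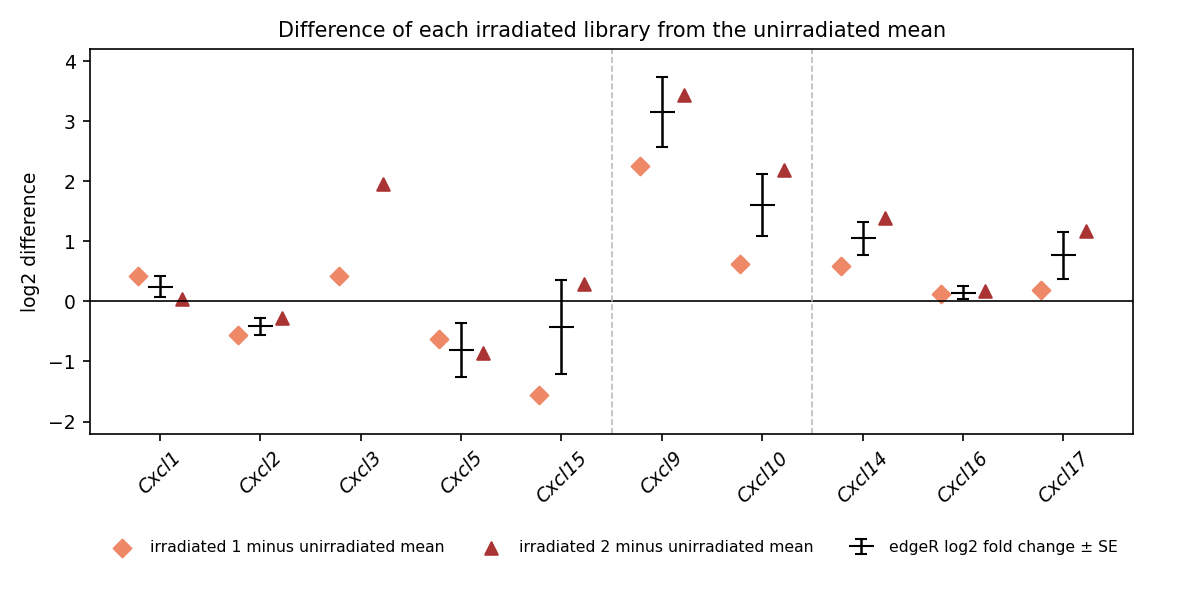
Log2 difference of irradiated 1 (diamonds) and irradiated 2 (triangles) from the unirradiated mean for each gene, with the edgeR log2 fold change and its SE (black bars, absent for the untested Cxcl3). Cxcl9 stands highest in both libraries, Cxcl2 and Cxcl5 lie below 0 in both, and Cxcl15 lies on opposite sides.

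Other fits called some of these genes. DESeq2 called Cxcl9 (adjusted p = 0.0028), Cxcl10 (0.0191) and Cxcl14 (0.0284) higher, 3 of 9 against 2.73% of all genes, and none of the 9 lower (0.350%). With no filter on low counts edgeR called the same 3 higher (4.86% of 27538 genes) and none of the 10 lower (0.381%). Without irradiated 2 edgeR called Cxcl1, Cxcl9, Cxcl10 and Cxcl14 higher, 4 of 9 against 11.9%, and Cxcl2 and Cxcl15 lower, 2 of 9 against 13.9%. Without irradiated 1 it called Cxcl3, Cxcl9, Cxcl10, Cxcl14 and Cxcl17 higher, 5 of 10 against 15.9%, and Cxcl2 lower, 1 of 10 against 7.95%. These last fits assume that the lone irradiated library varies like the unirradiated pair. Both fits share the unirradiated libraries.

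The 5 CXC ligands outside the 10 had their highest value in irradiated 2. Cxcl12, the stromal ligand of Cxcr4, was at 20.9, 19.5, 23.1 and 95.2 CPM (log2 fold change 1.55, SE 0.65, edgeR adjusted p = 0.557), and in irradiated 1 it was 0.19 above the unirradiated mean on the log2 scale. Cxcl13, which draws B cells, had 2, 7, 1 and 66 counts, and Cxcl11, a further Cxcr3 ligand, had 1, 0, 0 and 16. The platelet factor gene Pf4 had 6, 2, 1 and 55 counts and Ppbp, another platelet chemokine, 0, 0, 0 and 1. In irradiated 1 Cxcl11, Cxcl13, Pf4 and Ppbp had at most 1 count. There Cxcl9, Cxcl10 and Cxcl14 were above both unirradiated libraries, at 5.45-fold, 1.53-fold and 1.51-fold of the unirradiated mean.

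Among the receptors Cxcr4 (63.4, 58.6, 77.8 and 139 CPM) and Ackr3 (22.6, 21.7, 23.96 and 44.2 CPM) had the highest levels. Of 10 CXC and atypical chemokine receptor genes 6 passed the filter, 0 passed the test, 4 lay above in both irradiated libraries and 0 below, with a median log2 fold change of 1.68. The median log2 difference from the unirradiated mean was 0.91 in irradiated 1 and 1.95 in irradiated 2. Cxcr5, the receptor of Cxcl13, was at 0.433, 0.354, 1.26 and 3.15 CPM. Cxcr3, the receptor of Cxcl9 and Cxcl10 on lymphocytes, had 3, 1, 12 and 80 counts. Cxcr2, the receptor of the ELR ligands, had 2, 2, 0 and 56 counts, and the Cxcl16 receptor Cxcr6 had 4, 2, 1 and 105. Cxcr1 had 0 counts in all 4 libraries. Cxcr1, Cxcr2 and Cxcr6 thus stood at 4 counts or fewer in each of the first 3 libraries. Cxcr2 and Cxcr6 were detected mainly in irradiated 2. The atypical receptor gene Ackr1 was above that level, with 15, 9, 6 and 200 counts.

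For the receptor, regulator and protease lists, counts of genes above or below stand beside 20.3% above and 20.0% below over all genes, of which 0% passed the edgeR test. Of 14 interferon gamma response regulators 13 were tested and 0 passed, 6 lay above and 1 below, and the median log2 fold change was 0.15. Socs1, the feedback inhibitor of that pathway, was at 7.80, 7.08, 14.7 and 17.3 CPM (log2 fold change 1.11, SE 0.21, edgeR adjusted p = 0.489), alike in both irradiated libraries. Irf8, a factor of myeloid and lymphoid cells, was at 1.25, 1.71, 4.49 and 37.3 CPM. The interferon gamma gene Ifng itself had 2, 2, 6 and 99 counts. Of 15 NF-kB subunits and feedback genes 0 passed, 5 lay above and 2 below, with a median log2 fold change of 0.081. The subunit genes Rel (37.0, 42.5, 52.3 and 47.0 CPM) and Relb (50.2, 46.8, 68.8 and 53.0 CPM) had the smallest p of that list.

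Of 13 receptors and ligands of interleukin 17, interleukin 1 and TNF, which induce ELR ligands, 11 were tested and 0 passed, 5 lay above and 4 below (median log2 fold change 0.11). Il1a had 7, 3, 26 and 101 counts, and the TNF receptor gene Tnfrsf1b was at 7.07, 6.31, 13.1 and 40.2 CPM. AU-rich mRNA decay limits the life of chemokine mRNA. A mixed list of 8 genes held factors of this decay and other regulators of chemokine mRNA. All 8 were tested and 0 passed, with 2 above, 2 below and a median log2 fold change of 0.0591. Zfp36l2 was at 905, 918, 1219 and 980 CPM and Hnrnpd at 143, 142, 166 and 144 CPM. Of 8 proteases that shed or trim CXC ligands 6 were tested and 0 passed, with 2 above, 0 below and a median of 0.89. That median was carried by irradiated 2, with a median log2 difference of 1.39 against 0.0538 in irradiated 1. Among them were the metalloprotease genes Mmp12 (7, 0, 32 and 179 counts) and Mmp9 (10, 11, 30 and 178 counts), which macrophages and neutrophils express. Of the factors known to act on these promoters, Irf1 was at 697, 689, 671 and 574 CPM and Rela at 224, 236, 285 and 190 CPM.

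Markers of other cell types lay higher beside the higher ligands, above all in irradiated 2. Counts of markers above or below include untested genes. They stand beside 20.3% above and 20.0% below over the 15993 tested genes. The 10 tumor epithelium markers summed to 10750 and 10370 CPM without radiation and 11240 and 9111 CPM with it. Of these 2 lay above and 4 below, and none was at 0 in any library. The 10 macrophage and dendritic cell markers summed to 21.6 and 20.3 CPM against 83.8 and 698 CPM, 10 of 10 lay above, and Fcgr1 was at 0 in unirradiated 2. The 10 T and NK cell markers summed to 1.30 and 1.42 CPM against 4.24 and 62.7 CPM, and 5 of 10 lay above. Cd4 had 3, 7, 36 and 139 counts and Cd8a had 5, 3, 25 and 219. Klrb1c, Cd3d and Gzma were at 0 in irradiated 1, and 3 of the 10 were at 0 in each unirradiated library too. The 6 leukocyte markers summed to 177 and 167 CPM against 183 and 595 CPM, with 5 of 6 above. Lcp1, the sixth, took 167 and 158 CPM of the unirradiated sums. Ptprc, which encodes the sorted antigen CD45, was at 2.41 and 1.18 CPM against 9.63 and 77.2 CPM.

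The 10 endothelial markers summed to 27.3 and 23.7 CPM against 45.2 and 725 CPM (8 of 10 above) and the 10 fibroblast markers to 725 and 743 against 916 and 6181 CPM (6 of 10 above). The 6 B and plasma cell markers summed to 4.72 and 4.31 against 16.2 and 63.8 CPM (6 of 6 above), and the 6 red cell markers to 2.02 and 4.36 against 5.85 and 35.1 CPM (3 of 6 above). The 10 neutrophil markers summed to 760 and 761 against 655 and 791 CPM (6 of 10 above, 1 below). Ltf, also a milk protein and the 1 marker below, took 754, 751, 640 and 669 CPM of these sums, so they mostly follow Ltf. Csf3r had 7, 5, 42 and 286 counts and Mmp9 had 10, 11, 30 and 178. Ly6g, a defining neutrophil marker, was at 0 in the first 3 libraries. The 9 salivary or secretory gland markers summed to 22.2 and 25.1 against 164 and 616 CPM (5 of 9 above, 1 below). Macrophages, endothelium and fibroblasts can express Cxcl9, Cxcl10, Cxcl12 and Cxcl14, and the part of such cells in the ligand values was not tested.

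**Figure D5:**
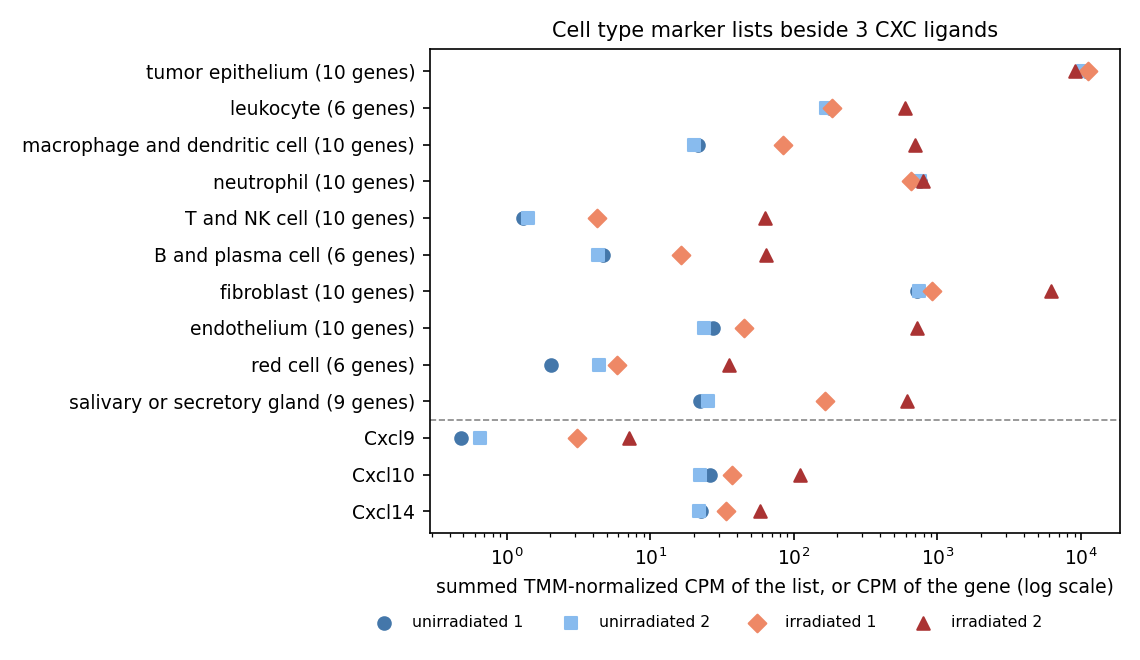
Summed TMM-normalized CPM of each marker list, and CPM of Cxcl9, Cxcl10 and Cxcl14 below the dashed line, on a log axis with 1 point per library. Irradiated 2 is furthest right in every list except tumor epithelium, and the macrophage sum runs from 20.3 to 698 CPM where Cxcl10 runs from 22.3 to 110 CPM.

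Genes with the most similar pattern were sought by the distance between log2 CPM differences from unirradiated 1 over the other 3 libraries, among 12287 named genes. For Cxcl1, the ELR gene of highest level, the nearest were Zfp623 (distance 0.029), Tulp3 (0.0552) and Sdad1 (0.0559). Cxcl10 was taken as the highest of the rest by its mean per kilobase of deposited length over all 4 libraries. Irradiated 2 carries that mean, since on this length Cxcl16 was higher in the other 3. With coding length Cxcl10 (27.25 CPM per kilobase) lay above Cxcl16 (23.64) in irradiated 1 too. For Cxcl10 the nearest were H19 (0.162), Pear1 (0.178) and the chemokine gene Ccl7 (0.262). H19 was at 4.33, 4.13, 5.95 and 19.03 CPM and Pear1 at 6.26, 5.96, 9.58 and 27.3 CPM. With 4 libraries such a match is a description only.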

How the data were processed

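The authors deposited raw counts per gene for 4 poly(A) libraries from a kit that keeps no strand. The submitters' processing notes list mm10, HTSeq 0.6.1, STAR 2.5 and DESeq2 without their settings. How reads in shared exons were counted is not given. The 4-library table matched the single tables at all 54532 genes. Gene length in bases is a further deposited column.

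Counts were tested with edgeR 4.0.16 in R 4.3.3: filterByExpr (minimum count 10, minimum total 15), TMM scaling and the two-sided quasi-likelihood test, with Benjamini-Hochberg adjustment over 15993 genes at 0.05. CPM are TMM-normalized, and log2 CPM was taken with prior count 2. SDs have n = 2, and Poisson intervals are at 95%. The fits were run on simulated counts, where detection of changes was required only at a low spread between libraries. This does not show what they would detect at the spread of the irradiated pair. Alternatives were other scalings and filters, a replicate block, left-out libraries, limma-voom 3.58.1 and DESeq2 1.42.0. The members, lists and promoter motifs were chosen with earlier results of these data known. All 10 members are named, and from each list outside the cell type markers the 2 tested genes with the smallest p. The same was done for the T and NK cell and the neutrophil markers. Cxcr1, Cxcr2, Cxcr4, Cxcr6, Ackr1, Ackr3, Ifng, Irf1 and Rela were added after their values were seen. So were Fcgr1, Klrb1c, Cd3d, Gzma, Lcp1, Ltf, Ly6g, Art3, Zmynd15 and the 2 within-library ratios. Same-numbered libraries deviated from their group means with a correlation of -0.0992. With n = 2 a group the deviations within a group mirror each other, so this cannot show whether the numbers pair the libraries. The values of 1 gene are not reported here.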

Additional observations from a re-analysis of the deposited data

How the results depend on the processing

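Of the log2 fold changes of the 9 tested members under the alternatives, 90 kept their direction and side of the threshold, 17 kept direction and passed it, and 1 turned. The genes called over the whole table, 0 each way by edgeR, numbered 437 higher and 56 lower by DESeq2, 1338 and 105 with no filter, and 2 higher with the replicate block, in which 0 members passed. Members called higher numbered 3 by DESeq2 and 3 with no filter. The log2 fold change of Cxcl9 was 3.17 by DESeq2 (adjusted p = 0.0028) and 3.15 with no filter (adjusted p = 3.4e-06). That of Cxcl10 was 1.60 (0.0191) and 1.59 (1.34e-20), and that of Cxcl14 was 1.05 (0.0284) and 1.04 (6.05e-07). Leaving out 1 library in turn gave 0 to 2713 genes higher and 0 to 2355 lower, and 0 to 5 members higher and 0 to 2 lower, with calls made when an irradiated library was left out. The log2 fold changes then ran from 0.029 to 0.41 for Cxcl1, -0.569 to -0.299 for Cxcl2, 2.43 to 3.64 for Cxcl9, 0.596 to 2.17 for Cxcl10, 0.583 to 1.38 for Cxcl14, -1.86 to 0.25 for Cxcl15 and 0.174 to 1.16 for Cxcl17. The turn was that of Cxcl15, at 0.25 without irradiated 1. The replicate block called no member. The mean summed level was 512 CPM per kilobase unirradiated and 588 irradiated with the length of the longest coding transcript, an alternative chosen after seeing the data, against 342 and 379 with the deposited lengths, which count more bases. The cause of the other differences was not tested. Depth limits Cxcl3, Cxcl5, Cxcl9 and Cxcl15, each with under 40 counts in at least 2 libraries.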
